A study of Mus musculus with 9 samples.

Results

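Macrophages and other myeloid cells enter muscle when fibres are damaged, clear debris and direct repair, and they are a standing feature of muscle that lacks dystrophin. They sense growth factors and immune complexes through surface receptors, several of which signal through small adaptor proteins, and they digest what they take up in lysosomes. A set of 10 genes of this machinery was followed here: Csf1r, Tyrobp, Fcer1g, Cd68, Lyz2, Laptm5, Mpeg1, Cd53, Cd52 and Lst1. They were chosen by name with earlier results of these data known, so their counts beside those of all probe sets are descriptions. All 10 were found among the 8251 genes named singly on the array. They had 16 probe sets of 12488, after 1 probe set shared by Lyz1 and Lyz2 was left out. Of the 16, 10 probe sets of 9 genes lay above the filter on dim signals and were tested, and both Fcer1g probe sets fell below it.

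The gastrocnemius, a muscle of the calf, was profiled in 9 mice on Affymetrix U74Av2 arrays, 1 mouse to an array. Wild-type mice (C57Bl/DBA2/129OLA-Ev, n = 2, a female called wild-type 1 and a male called wild-type 2) were 7 weeks old, and every other mouse was male. The hDMD mouse (n = 1, 11 weeks) carried the full-length human dystrophin gene beside its own. The mdx mice (n = 2, 15 weeks for mdx 1 and 13 for mdx 2) had a mutated Dmd gene, and the hDMD mdx mice (n = 2, 24 weeks for hDMD mdx 1 and 10 for hDMD mdx 2) carried the human gene on that background. The mdx utrn-/- mouse (n = 1, 5 weeks) lacked the related protein utrophin as well, and the hDMD mdx utrn-/- mouse (n = 1, 9 weeks) carried the human gene on the double-deficient background. Age differed between genotypes, and the strain is given for the wild-type mice alone. Nothing was treated. Values are on the log2(value + 16) scale after quantile normalisation, with a floor of 4, and levels are compared between arrays within a probe set.

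Spike-in controls, added in fixed amount at hybridisation, had medians of 206 to 225 in mdx 2, wild-type 1 and hDMD mdx 1, called bright, and of 28.6 to 42.3 in the 6 other arrays, called dim. Ratios of 3-prime to 5-prime actin signal, a sign of RNA integrity, ran from 1.20 to 1.87 in bright arrays and from 0.669 to 0.908 in dim ones. Differences are therefore also given within each kind of array. The muscle genes Ckm and Acta1 lay between 9.87 and 10.86 and between 11.73 and 11.89. Among other macrophage markers, Cd14, a receptor for bacterial lipopolysaccharide, lay between 6.28 and 7.01 without dystrophin and between 5.64 and 7.15 with it. Its highest level was in wild-type 2. Adgre1, a macrophage surface receptor, lay between the floor and 4.36 without dystrophin and between the floor and 5.10 with it. Its highest level was in hDMD mdx utrn-/-. Itgam, an integrin chain, lay between the floor and 4.60 and between the floor and 4.20. These last 2 probe sets fell below the filter. Msr1, a scavenger receptor, lay between the floor and 5.17 without dystrophin and between the floor and 5.34 with it, and Mrc1, the mannose receptor, between 4.26 and 5.44 and between the floor and 5.39. The macrophage label therefore has uneven backing from defining markers on these arrays. Cd53, Cd52 and Laptm5 are also made by lymphocytes, and Tyrobp and Fcer1g by natural killer and mast cells. In whole muscle, a change in the number of such cells and in RNA per cell cannot be told apart.

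The transcription factor PU.1, encoded by Spi1, controls many myeloid genes and binds purine-rich sites with a GAGGAA core. The 250 bases before the start of transcription were available from RefSeq (GRCm38.p6) for 6 of the 10 genes and were searched for GAGGAA on both strands. Cd68, Laptm5 and Cd53 each held 1 match, beginning 225, 38 and 39 bases before the start that the table uses, and Lyz2, Fcer1g and Mpeg1 held none of these letters. The Laptm5 window belongs to a start inside the annotated gene. The same letters stood in 23.3% of the 32851 windows in the table, so a match is a description and not a site. The windows of Cd68 (chr11:69666171-69666420, minus strand), Cd53 (chr3:106790150-106790399, minus strand) and Lyz2 (chr10:117282273-117282522, minus strand) are shown 5′ to 3′, because these genes moved together across the arrays and differ in the match, which is in capitals.
Cd68: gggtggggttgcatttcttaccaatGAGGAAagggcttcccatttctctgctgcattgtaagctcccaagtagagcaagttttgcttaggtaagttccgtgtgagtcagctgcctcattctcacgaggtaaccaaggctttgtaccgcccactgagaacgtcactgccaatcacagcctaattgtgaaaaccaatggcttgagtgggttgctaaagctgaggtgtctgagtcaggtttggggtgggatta
Cd53: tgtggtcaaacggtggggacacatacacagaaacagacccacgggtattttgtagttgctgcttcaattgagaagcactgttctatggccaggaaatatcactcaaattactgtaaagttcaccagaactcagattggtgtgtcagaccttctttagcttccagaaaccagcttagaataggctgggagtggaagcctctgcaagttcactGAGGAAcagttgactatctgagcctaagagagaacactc
Lyz2: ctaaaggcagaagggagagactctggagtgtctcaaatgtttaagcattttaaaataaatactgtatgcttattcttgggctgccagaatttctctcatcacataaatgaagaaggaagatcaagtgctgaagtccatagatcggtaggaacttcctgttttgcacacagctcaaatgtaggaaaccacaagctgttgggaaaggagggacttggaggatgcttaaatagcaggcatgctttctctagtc

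Csf1r (Entrez gene 12978) encodes the receptor for CSF1 and IL-34, on which most tissue macrophages depend. Its level was 5.69 in wild-type 1 and 7.81 in wild-type 2, 6.61 in hDMD, 6.14 and 6.19 in hDMD mdx 1 and 2, and 6.01 in hDMD mdx utrn-/-. It was 7.79 and 6.72 in mdx 1 and 2 and 7.01 in mdx utrn-/-. The highest level of all 9 arrays was thus in wild-type 2 and the lowest in wild-type 1, and every array without dystrophin lay above every array with it other than wild-type 2. The other Csf1r probe set lay below the filter, between the floor and 4.96.

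Tyrobp (Entrez 22177), also called DAP12, is the adaptor through which receptors such as TREM2 signal. Its level was 4.63 and 5.86 in wild-type 1 and 2, 4.60 in hDMD, 4.76 in hDMD mdx 1, the floor in hDMD mdx 2 and, for hDMD mdx utrn-/-, 4.03. In mdx 1 and 2 it was 6.51 and 6.21, and in mdx utrn-/- 5.93. The 3 arrays without dystrophin were higher than all 6 with it, by a narrow margin over wild-type 2. Fcer1g (Entrez 14127), the common gamma chain of Fc receptors, was near the floor throughout, with 4.46 in mdx 1, 4.12 in mdx 2 and 4.46 in mdx utrn-/- against the floor to 4.14 in the other 6 arrays.

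Cd68 (Entrez 12514), a lysosomal glycoprotein used to stain macrophages, was at 4.72 and 6.47 in wild-type 1 and 2, 5.39 in hDMD, 4.79 and 4.94 in hDMD mdx 1 and 2, and 5.08 in hDMD mdx utrn-/-. It was 7.27 and 6.21 in mdx 1 and 2 and 6.17 in mdx utrn-/-. Wild-type 2 lay within the range of the arrays without dystrophin, and the other 5 carrying arrays below it. Lyz2 (Entrez 17105), lysozyme of macrophages and granulocytes, was at 5.61 and 7.24 in wild-type 1 and 2, 4.92 in hDMD, 5.85 and 5.51 in hDMD mdx 1 and 2, and at the floor in hDMD mdx utrn-/-. Its level was 7.87 and 7.31 in mdx 1 and 2 and 7.16 in mdx utrn-/-. Again wild-type 2 alone among the carrying arrays overlapped those without dystrophin. Signal from Lyz1, a close copy, cannot be told apart from that of Lyz2 here, and the second Lyz2 probe set stayed between the floor and 4.40.

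Laptm5 (Entrez 16792), a lysosomal membrane protein of blood cells that lowers surface receptor levels, was at 5.75 and 7.28 in wild-type 1 and 2, 5.23 in hDMD, 6.16 and 6.09 in hDMD mdx 1 and 2, and 6.22 in hDMD mdx utrn-/-. In mdx 1 and 2 it was 7.61 and 7.12, and in mdx utrn-/- 6.86. Its other tested probe set gave the same order of the 2 wild-type arrays, at 5.96 and 7.39, but set hDMD mdx 1 at 6.46 apart from hDMD mdx 2 at 4.79 and put hDMD mdx utrn-/- at the floor. Mpeg1 (Entrez 17476), which encodes the pore-forming protein perforin-2, was at 5.03 and 6.72 in wild-type 1 and 2, 4.40 in hDMD, 5.71 and 5.35 in hDMD mdx 1 and 2, and 5.37 in hDMD mdx utrn-/-. It was 6.92 and 7.44 in mdx 1 and 2 and 6.47 in mdx utrn-/-. Wild-type 2 was the only carrying array inside the range of the arrays without dystrophin.

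Cd53 (Entrez 12508), a tetraspanin of leukocytes, was highest in wild-type 2 at 6.39 and lowest in wild-type 1 at 4.06, with 4.30 in hDMD, 4.93 and 4.25 in hDMD mdx 1 and 2, and 4.75 in hDMD mdx utrn-/-. It was 5.89 and 5.60 in mdx 1 and 2 and 5.04 in mdx utrn-/-. Cd52 (Entrez 23833), a short glycoprotein anchored in the leukocyte membrane, was at 5.48 and 6.46 in wild-type 1 and 2, 5.64 in hDMD, 6.17 and 4.43 in hDMD mdx 1 and 2, and 5.73 in hDMD mdx utrn-/-, against 5.98 and 6.47 in mdx 1 and 2 and 6.42 in mdx utrn-/-. Its levels in hDMD mdx 1 and wild-type 2 lay within the range of the arrays without dystrophin. Lst1 (Entrez 16988), a small leukocyte membrane protein encoded within the MHC region, was at 4.57 in wild-type 1, 4.41 in hDMD mdx 1 and the floor in the other 4 carrying arrays, wild-type 2 included. It was 6.08 and 5.58 in mdx 1 and 2 and 5.83 in mdx utrn-/-, so that its groups lay well apart.

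**Figure D1:**
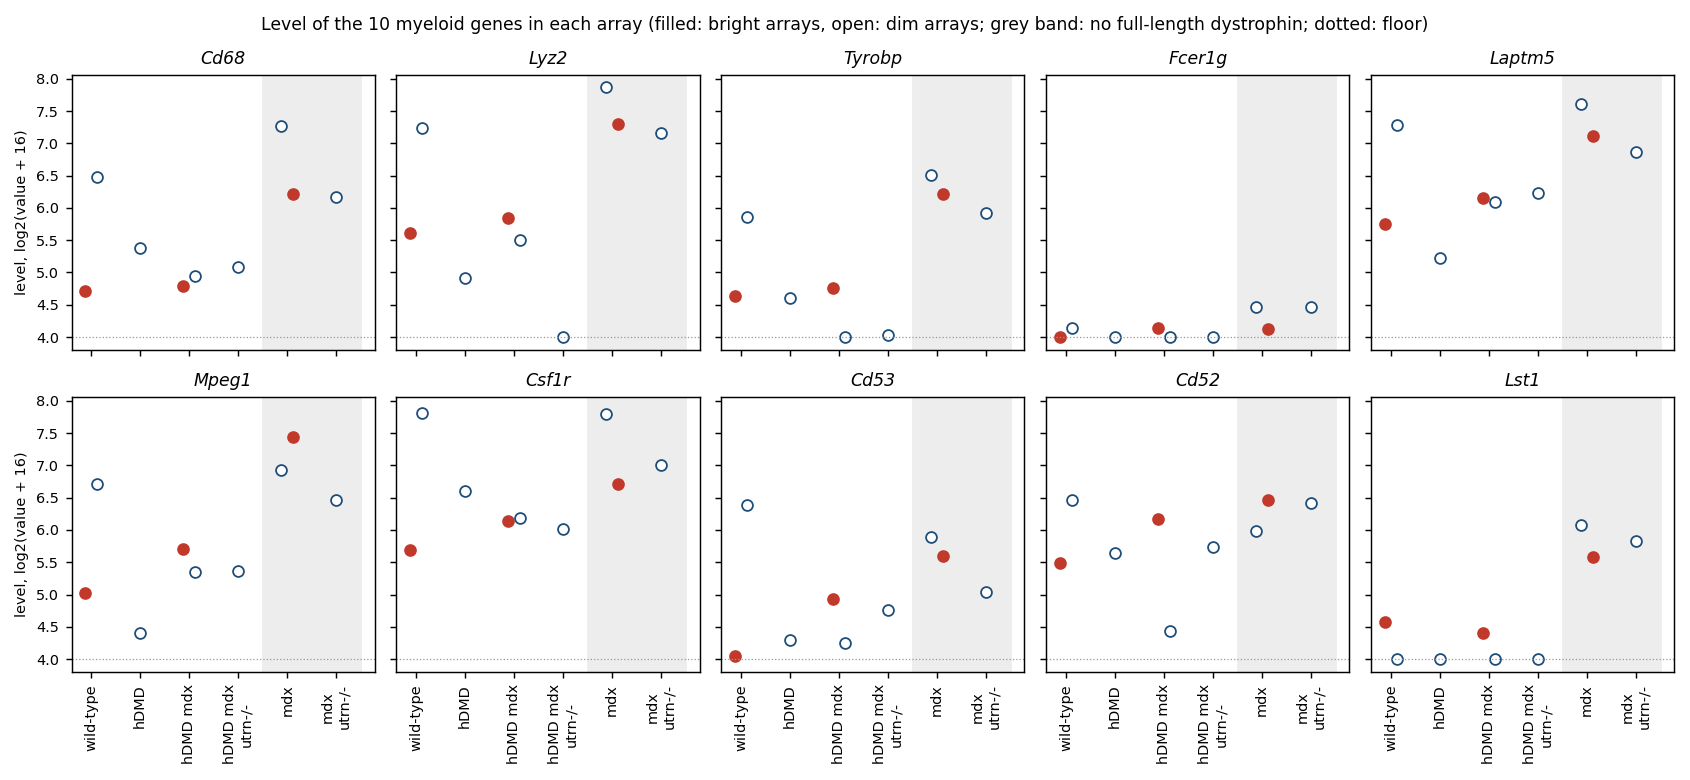
Level of each of the 10 genes on the log2(value + 16) scale (vertical axis) by genotype (horizontal axis), 1 point per mouse, filled for the 3 bright and open for the 6 dim arrays, with a grey band over genotypes without full-length dystrophin and a dotted line at the floor of 4. The open wild-type point, wild-type 2, sits with or near the banded arrays in every gene but Lst1, and all points of Fcer1g are near the floor.

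The median deviation of the 10 genes from their own means over the arrays gives 1 value per mouse. It was 1.13 in mdx 1, 0.79 in wild-type 2, 0.62 in mdx 2 and 0.52 in mdx utrn-/-. It was -0.31 in hDMD mdx 1, -0.58 in hDMD mdx utrn-/-, -0.64 in wild-type 1, -0.64 in hDMD and -0.69 in hDMD mdx 2. The arrays thus fell into 4 with high and 5 with low values, and the order within the low arrays spans less than the gap between mdx 1 and mdx 2. Both bright and dim arrays stood on either side.

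**Figure D2:**
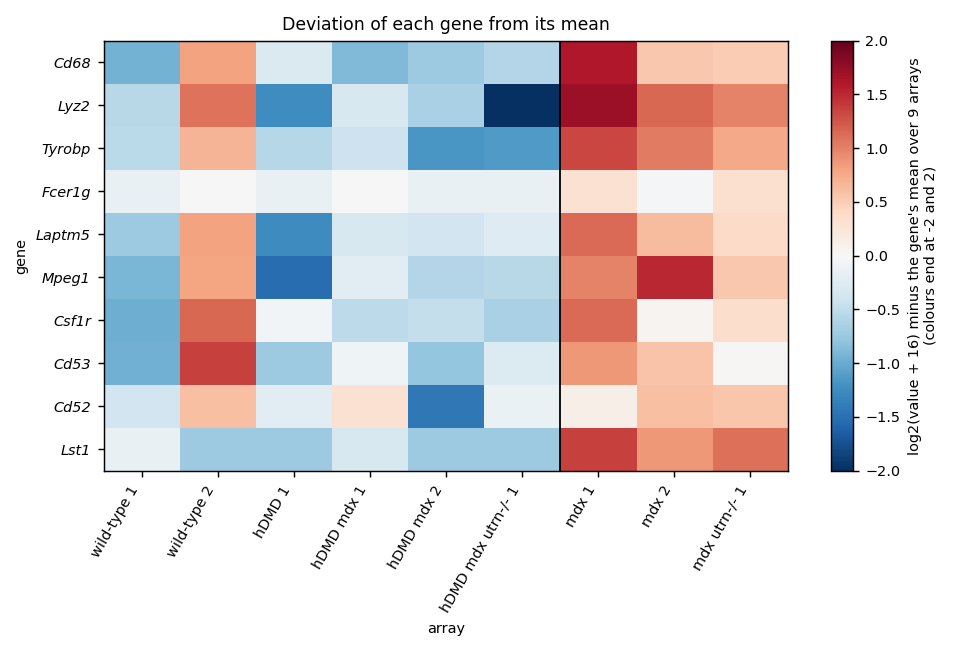
Deviation of each gene (rows) from its mean over the 9 arrays in each array (columns), on the log2(value + 16) scale, red above and blue below the mean, with a line before the 3 arrays without dystrophin. The column of wild-type 2 is red in all rows but Lst1, where it is at the floor, and Fcer1g, where it is near the mean.

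The first comparison asked which of the genes followed full-length dystrophin, mouse or human, as the genotype gives it. The 3 mdx and mdx utrn-/- arrays, which lack it, were set against the 6 others. All 10 genes had higher values without dystrophin, where 48.2% of all 7453 tested probe sets did, and their median difference was 1.20 against -0.01 over all probe sets. Lst1 rose by 1.67 ± 0.23 (SE), from 4.16 ± 0.26 (SD, n = 6) to 5.83 ± 0.25 (n = 3), with an adjusted p of 0.0203 in limma, and it was the only member to pass, against 0.121% of all probe sets. With 4 of the 6 carrying arrays at the floor, this difference depends on the pseudocount. The carrying mean also lay below the filter level of 4.46, so that Lst1 was tested through its level in the arrays without dystrophin, and without the filter its limma adjusted p was 0.0529. The call is therefore a value of Lst1 and no support for the set.

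Among the receptor and adaptor genes, Tyrobp differed by 1.57 ± 0.37 (adjusted p 0.372 in limma) and Csf1r by 0.77 ± 0.42 (0.989). Among the lysosomal and secreted products, Lyz2 differed by 1.92 ± 0.54, Mpeg1 by 1.51 ± 0.42, Cd68 by 1.32 ± 0.40 and Laptm5 by 1.07 ± 0.38, or 1.65 ± 0.62 on its other probe set, with limma adjusted p values of 0.457, 0.456, 0.582, 0.758 and 0.802. The surface proteins Cd53 and Cd52 differed by 0.73 ± 0.45 and 0.64 ± 0.38 (adjusted p 0.999 each in limma). At an unadjusted p under 0.05, 6 of the 9 tested genes were higher, where 3.26% of all probe sets were. Lst1, whose carrying mean lay below the filter level, is among these 6. The genes moved together across arrays and are not independent of one another.

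Within bright arrays the median difference of the 10 genes was 1.13, and within dim arrays 1.13, with all 10 values above 0 in each. Tyrobp and Lst1 were the only genes whose classes did not overlap, 2 of 10 against 1.52% of all probe sets. Of these, Lst1 had a carrying mean below the filter level. Without wild-type 2 the classes did not overlap for 8 of the 10 genes, all but Fcer1g and Cd52, against 3.3% of all probe sets, and the median was 1.44. Wild-type 2 was the array that overlapped in the genes so gained. The rise of this count therefore follows from leaving it out and supports nothing about the set. Tyrobp, with a difference of 1.81 (limma adjusted p 0.0282), and Lst1 then passed, 2 of the 9 tested genes against 0.148% of probe sets. Both of them, and Cd53 among the 8 without overlap, had carrying means below the filter level there. Without any other single mouse the number of genes without overlap was 2 to 4. Lst1 lost its call when hDMD, hDMD mdx 2, mdx 1 or mdx utrn-/- was left out, with limma adjusted p values of 0.0587, 0.0781, 0.134 and 0.115 and differences of 1.63, 1.63, 1.54 and 1.67.

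**Figure D3:**
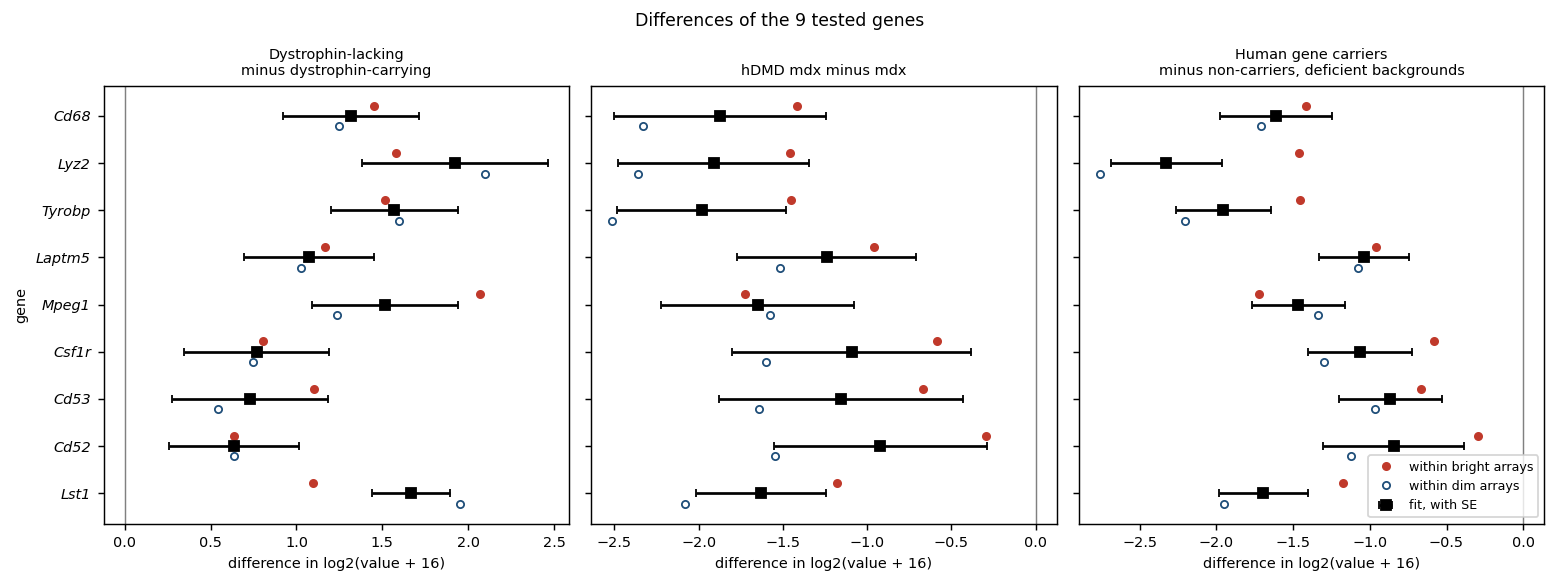
Differences of the 9 tested genes on the log2(value + 16) scale (horizontal axis) in 3 comparisons, with the fitted value and its standard error as a square with a bar, the difference within bright arrays as a filled point and that within dim arrays as an open point. Every value lies to the right of 0 in the first panel and to the left in the other 2, and the panels share the mdx arrays.

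Comparison of mdx with wild-type muscle addressed the loss of mouse dystrophin without that of utrophin, and here the 2 wild-type arrays have to be read singly. The mean of the mdx arrays was above wild-type 1 for all 10 genes, by more than 1 for 8 of them, with a median of 1.65. Against wild-type 2 it was above for 7 genes with a median of 0.21, and Csf1r, Cd53 and Cd52 were lower by 0.56, 0.65 and 0.24. Lst1 alone was far above both, at 5.83 ± 0.35 (SD, n = 2) in mdx against 4.57 and the floor.

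Against the mean of both wild-type arrays all 10 genes had higher values, where 50% of probe sets did, and the median difference was 0.98, with 1.43 between the bright and 0.32 between the dim arrays. In limma none of the 7453 probe sets passed (0%), 130 had an unadjusted p under 0.05, and with brightness as a block none passed either. Lst1 was the only member with an unadjusted p under 0.05, at 1.55 ± 0.39 (limma unadjusted p 0.00525, adjusted p 1), 1 of 9 against 1.05% of probe sets. Its wild-type mean, 4.29, was below the filter level, so this count supports nothing about the set. Lyz2, Tyrobp, Mpeg1 and Lst1 were higher in both mdx arrays than in both wild-type arrays, 4 of 10 genes against 11.2% of probe sets. At 15 and 13 weeks against 7, age and genotype cannot be told apart. Sex also differed, as wild-type 1 was female, and the strain of the mdx mice is not given.

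**Figure D4:**
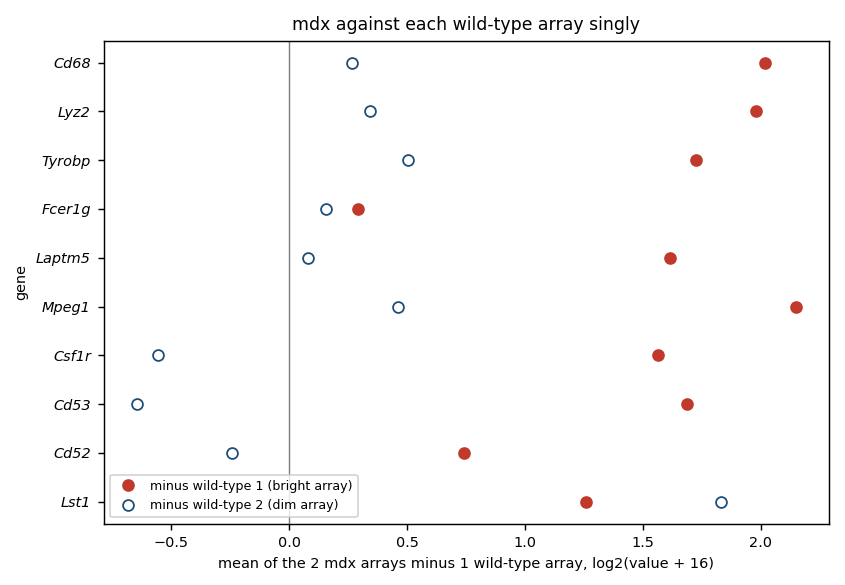
Mean level of the 2 mdx arrays minus that of wild-type 1 (filled) or wild-type 2 (open) for each of the 10 genes (vertical axis), on the log2(value + 16) scale (horizontal axis). All filled points lie to the right of 0, and the open points lie between -0.65 and 0.50 except for Lst1 at 1.83.

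The distance between the wild-type mice was as large as that between genotypes. Wild-type 2 exceeded wild-type 1 by more than 1 in 7 of the 10 genes, where 9.59% of all probe sets did, with 2.33 for Cd53, 2.12 for Csf1r, 1.75 for Cd68, 1.69 for Mpeg1, 1.64 for Lyz2, 1.54 for Laptm5 and 1.22 for Tyrobp. Lst1 went the other way. Wild-type 1 was female and bright, and wild-type 2 male and dim. Adipocyte genes moved with the members in wild-type 2: their median deviation there was 1.61 over 11 genes, against -0.98 to 0.57 in the other 8 arrays. T and B lymphocyte genes were also highest there (0.28 against -0.10 to 0.05, 17 genes). Among them Ms4a1 and Thy1 were highest in wild-type 2, at 6.76 and 7.49, while Cd4, at 4.15 there, was not. Cd3e was at the floor in all 9 arrays and so does not distinguish between them. The part of these cells in the wild-type difference was not tested. The hDMD array was near wild-type 1, with a median difference of -0.02 and a range of -0.69 to 0.91, and below wild-type 2 by more than 1 in 7 of 10 genes, where 6.72% of probe sets were.

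Adding the human dystrophin gene on the mdx background set hDMD mdx against mdx (n = 2 each). All 10 genes had lower values in hDMD mdx, where 47.3% of probe sets did, with a median of -1.43, -1.07 between the bright and -1.62 between the dim arrays. Tyrobp was at 4.38 ± 0.54 against 6.36 ± 0.21 (SD, n = 2 each), a difference of -1.98 ± 0.50, and Lyz2 at 5.68 ± 0.24 against 7.59 ± 0.40, a difference of -1.91 ± 0.57. Cd68 differed by -1.87 ± 0.63, Mpeg1 by -1.65 ± 0.57, Lst1 by -1.63 ± 0.39 and Laptm5 by -1.24 ± 0.53. The arrays did not overlap for 8 of the 10 genes, all but Fcer1g and Cd52, against 13.1% of probe sets. In limma no probe set passed (0%), 215 had an unadjusted p under 0.05, and none passed with brightness as a block. Of the 9 tested genes, 5 had an unadjusted p under 0.05 and a lower value, against 1.99% of probe sets, and the adjusted p of every member rounded to 1. Tyrobp and Lst1 are among the 5, and their hDMD mdx means lay below the filter level.

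The hDMD mdx mice were 24 and 10 weeks old. In each of them the same 8 of the 10 genes were below both mdx mice, against 13.1% of probe sets. Tyrobp and Lst1, with hDMD mdx means below the filter level, are among the 8. The part of age cannot be read from this count. Cd52 was at 6.17 in hDMD mdx 1 and 4.43 in hDMD mdx 2. Tyrobp was at 4.76 and the floor.

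With the double-deficient mice included, 3 arrays with the human gene were set against 3 without it, with utrophin genotype in the fit. The 10 genes again all had lower values with the human gene, where 48.4% of probe sets did, with a median of -1.26. Lyz2 differed by -2.33 ± 0.36 and Tyrobp by -1.95 ± 0.31 (adjusted p 0.165 each in limma), Lst1 by -1.69 ± 0.29 (0.193) and Mpeg1 by -1.47 ± 0.30 (0.377). The groups did not overlap for 8 of 10 genes, against 5.3% of probe sets, and 8 of the 9 tested genes had an unadjusted p under 0.05 and a lower value, against 3.56%. Tyrobp and Lst1, whose means with the human gene lay below the filter level, are among these 8. No probe set passed in limma (0%), and with brightness as a block 4 passed, all lower with the human gene and no member among them. The smallest adjusted p of a member with the block was 0.114 for Tyrobp in limma. This comparison and all those before it share the mdx arrays. Its arrays were also all in the comparison of dystrophin classes, split the same way. The directions of these comparisons are therefore not separate observations.

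Utrophin-deficient mice came as 1 array of each kind, so this pair has no replicate check. The hDMD mdx utrn-/- array was lower for all 10 genes, and by more than 1 for 6 of them, where 10.1% of probe sets were. Tyrobp went from 5.93 to 4.03, Cd68 from 6.17 to 5.08, Mpeg1 from 6.47 to 5.37 and Csf1r from 7.01 to 6.01, and Lyz2 and Lst1 from 7.16 and 5.83 to the floor. Neutrophil genes stood high in the mdx utrn-/- array, with S100a9, a subunit of calprotectin, at 9.52 there against the floor to 5.29 in the other 8 arrays. Lyz2, Tyrobp and Fcer1g are also made by neutrophils. Their levels were 7.16, 5.93 and 4.46 in mdx utrn-/-, and 7.87, 6.51 and 4.46 in mdx 1, where S100a9 was at 4.46. The part of neutrophils in either array was not tested.

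Other genes of the same machinery were taken from fixed lists. Of 14 tested macrophage genes outside the set, none passed in any of the 4 comparisons in limma, and 12 lay higher in the arrays lacking dystrophin. Their median difference was 0.36, and 4 were higher at an unadjusted p under 0.05. Over all probe sets 48.2% lay higher and 3.26% did so at that p. The median deviation of the list (21 genes) was highest in wild-type 2, at 0.63. It was 0.32 in mdx 1, 0.27 in mdx utrn-/- and 0.00 in mdx 2. Lgals3, a lectin of activated macrophages, differed by 2.73 ± 0.62, Ctss, a lysosomal protease, by 2.22 ± 0.58, and Mmp12, macrophage elastase, by 1.58 ± 0.39 (adjusted p 0.298, 0.383 and 0.383 in limma). All of these overlapped between classes through wild-type 2, where they were at 7.53, 7.20 and 5.01. Lgals3 was at 7.28 in mdx 2, and Ctss and Mmp12 at 6.95 and 4.70 in mdx utrn-/-. With the human gene on deficient backgrounds, 11 of the 14 were lower, with a median of -0.53. With brightness as a block Lgals3 and Ctss were among the 4 that passed there.

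Receptor and adaptor genes listed around the immunoreceptor tyrosine-based activation motif, which Tyrobp and Fcer1g carry, had smaller differences. The list also holds inhibitory receptors, which do not signal by that motif. Of 9 tested, 8 lay higher without dystrophin; their median difference was 0.33, with none at an unadjusted p under 0.05 in limma. Vav1, an exchange factor, differed by -0.83 ± 0.47, Sirpa, an inhibitory receptor, by 0.55 ± 0.33, and Pirb, another inhibitory receptor, by 0.35 ± 0.28. Of 18 tested genes of the CSF1 receptor axis and of myeloid transcription, 11 lay higher, and the median difference was 0.28. Spi1 differed by 0.68 ± 0.26 and Ets2, a transcription factor, by -0.66 ± 0.30 (unadjusted p 0.0226 and 0.0460, adjusted p 0.802 and 0.875 in limma). Of 19 tested leukocyte genes, 17 lay higher, and the median difference was 0.30. Cd63, a tetraspanin of lysosomes, differed by 0.83 ± 0.23, Lsp1, an actin-binding protein, by 1.30 ± 0.54 and Selplg, the P-selectin ligand, by 0.86 ± 0.37. Wild-type 2 had the highest median deviation of the 9 arrays for the CSF1 receptor list (0.18, 20 genes) and the leukocyte list (0.32, 23 genes). For the tyrosine-based motif list mdx 1 was highest, at 0.29 (16 genes).

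Markers of other cells were taken from further lists. All 8 tested T and B lymphocyte genes lay lower in the arrays lacking dystrophin. Their median difference was -0.32, 2 were lower at an unadjusted p under 0.05, where 2.32% of probe sets were, and none passed in limma. The largest differences were those of Ighm, an immunoglobulin heavy chain, at -1.08 ± 0.47, Ms4a1, which encodes CD20, at -0.71 ± 0.28 and Cd4 at -0.50 ± 0.44. The 15 neutrophil and mast cell genes had a median of 0.28, with 11 higher without dystrophin, and the 4 natural killer cell genes -0.07. Between mdx and wild-type, however, all 15 neutrophil and mast cell genes were lower in mdx, with a median of -0.49. The mean level of that list was 6.23 in mdx utrn-/-, against 4.91 in mdx 1 and 4.55 in mdx 2. Mean levels of the neutrophil and mast cell list (19 genes) were 4.55 to 6.23 without and 4.60 to 5.31 with dystrophin. For lymphocytes (17 genes) they were 4.70 to 4.74 and 4.59 to 5.16, and for natural killer cells (7 genes) 4.41 to 4.73 and 4.35 to 4.89. Adipocyte genes had a median difference of -0.12 (10 tested), skeletal muscle genes -0.04 (13), and the 2 blood genes 0.39. The largest differences there were 1.54 ± 0.94 for S100a9, -0.34 ± 0.29 for Prf1, a pore-forming protein of killer cells, -0.82 ± 0.48 for Scd1, a fatty acid desaturase, and -0.70 ± 0.21 for Mb, myoglobin, and none passed in limma. Mean levels without and with dystrophin were 6.41 to 7.37 and 5.85 to 8.57, 10.56 to 10.73 and 10.52 to 10.87, and 6.20 to 7.36 and 6.23 to 7.53, for adipocyte, muscle and blood genes in turn.

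**Figure D5:**
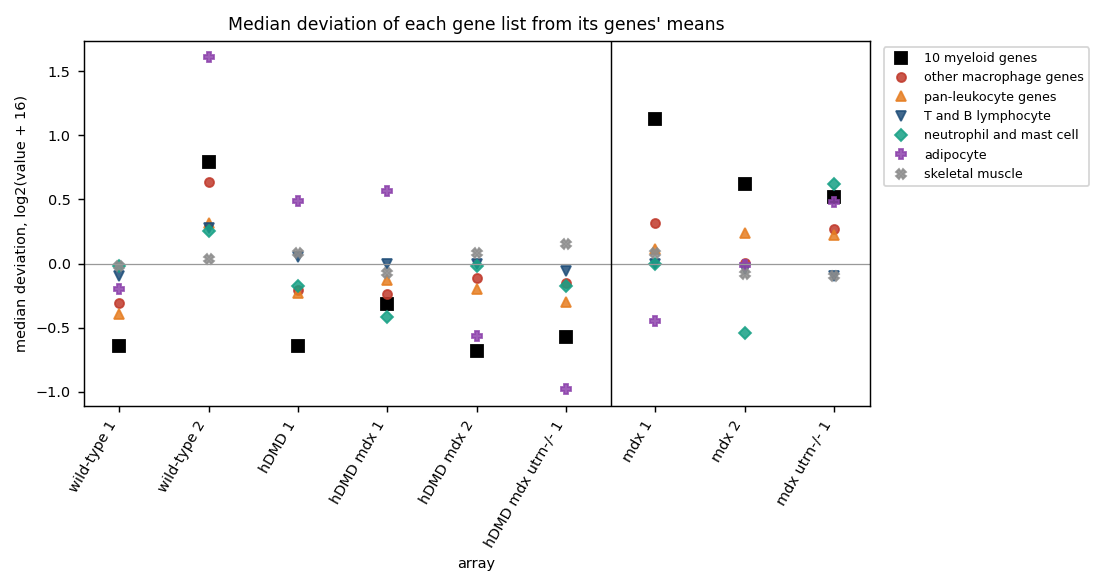
Median deviation of the 10 myeloid genes (black squares) and of 6 other lists from their genes' means over the 9 arrays (vertical axis, log2(value + 16)) in each array (horizontal axis), with a line before the arrays without dystrophin. The squares are above 0 in the last 3 arrays and in wild-type 2, where the adipocyte list reaches 1.61.

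Over the 9 arrays each of the 10 genes was correlated with the median deviation of the other 9, with Pearson's r of 0.67 for Cd52, 0.70 for Lst1, 0.79 for Fcer1g and 0.86 to 0.95 for the others. These values describe arrays that share genotype and brightness and carry no test. The 8 genes outside the set with the highest r to the median of the tested members were Lgals3 (0.97), Psmb8 (0.96), C1qb (0.96), Cltc (0.95), Cd63 (0.95), Tmsb10 (0.94), Plac8 (0.94) and Rbm39 (0.94). C1qb, a chain of complement C1q, was at 5.13 and 7.87 in wild-type 1 and 2, 7.89 and 6.94 in mdx 1 and 2, 6.71 in mdx utrn-/- and 5.42 to 5.75 in the 4 arrays with the human gene. Psmb8, a subunit of the immunoproteasome, was at 5.34 and 6.70 in wild-type, 6.56 and 6.07 in mdx, 6.43 in mdx utrn-/- and 5.19 to 5.68 with the human gene. In wild-type 2 both thus lay within or above the range of the mdx arrays. Tmsb10, which binds actin monomers, was the only 1 of the 8 to pass between dystrophin classes, at 1.93 ± 0.30 (limma adjusted p 0.0401), and at 8.21 in wild-type 2 it lay below all 3 arrays without dystrophin (9.02 to 9.44).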

How the data were processed

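Intensities of 9 Affymetrix U74Av2 arrays were taken as deposited by the authors, on a linear scale. Which expression measure, software or scaling produced them is not given in the sources used here. Between 19.4% and 29.9% of values per array lay at or below 0. Intensities were quantile normalised, set to 0 where negative, and put on the log2 scale with a pseudocount of 16. The 66 control probe sets were left out, and the 7453 of 12422 others with a mean above the 40th percentile were tested with limma 3.58.1 in R 4.3.3 (two-sided, Benjamini-Hochberg over all, threshold 0.05). The log2 fits used 2 dystrophin classes, genotype means, or the human gene with utrophin as an additive term, on 7, 3 and 3 residual degrees of freedom. Genotypes with 1 mouse are assumed to vary like those with 2. A gene is represented by its probe set with the highest mean, and medians of the set include Fcer1g, which was not tested. Gene names come from the platform annotation, updated through Entrez identifiers. Arrays carry no counts, and their number limits the precision. The fits were tested on simulated data with normal noise, without a floor or brightness groups. The simulated shifts were larger than the fitted differences of the members, so recovery of differences of that size was not tested.

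All 10 genes, up to 3 genes per list with the largest difference between dystrophin classes, and the 8 genes most like the set are named. Members and lists were chosen with earlier results of these data known. Alternatives were no or another normalisation, other pseudocounts, no filter, brightness as a block, dim arrays alone, age as a covariate, a variance trend, and each mouse left out.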

Additional observations from a re-analysis of the deposited data

Results flagged for a closer look

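Among the 6 dystrophin-carrying arrays, the Cd53 level of wild-type 2, 6.39, stood apart from the next highest, 4.93. The gap, set against the range of the 6 values, was just past the 95% critical value of Dixon's test for a lone sample. Chance gives such a call in about 5% of groups, and 10 probe sets were examined. No other tested probe set of the set was called, although wild-type 2 was the highest carrying array for 9 of the 10.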

How the results depend on the processing

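With 1 to 2 mice per genotype, age and brightness unbalanced and many members near the floor, a p that misses the threshold does not show that levels are alike. No paired analysis was possible because the replicate numbers follow accession order and the labels pair no mice. The median difference of the 10 genes kept its direction in all 4 comparisons under every alternative run. Between dystrophin classes it was 1.86 with a pseudocount of 1, 0.69 with 64, 0.81 as deposited and 0.91 to 1.44 with single mice left out. The count passing, 9, was 0 on deposited values, 2 without the filter and 1 with a pseudocount of 1, and 2 to 18 with single mice left out. For mdx against wild-type the median was 0.57 with a pseudocount of 64, 0.32 in dim arrays and 0.21 to 1.65 with mice left out (0.21 without wild-type 1, 1.65 without wild-type 2), and 0 probe sets passed throughout. In dim arrays, which gave no test there, Laptm5 (second probe set), Csf1r, Cd53 and Cd52 turned to -0.052, -0.022, -0.50 and -0.48. Cd52 turned to -0.57 with age. Without wild-type 1, Csf1r, Cd53 and Cd52 turned to -0.56, -0.65 and -0.24, against 1.57, 1.69 and 0.74 without wild-type 2, and without mdx 1 Csf1r turned to -0.03. For hDMD mdx against mdx the median was -0.66 as deposited, where Cd52 turned to 0.13, -2.18 with a pseudocount of 1 and -0.81 with 64. For the human gene on deficient backgrounds it was -0.69 as deposited, -1.85 with a pseudocount of 1 and -0.72 with 64, as a larger pseudocount compresses low values. There 4 probe sets passed with the block and 1 with a trend, against 0. Lst1 also lost its class call as deposited (0.89, adjusted p 1), without the filter (1.67, 0.0529, with 12422 probe sets tested) and with a pseudocount of 1 (4.42, 0.280) in limma. The cause of the other changes was not tested.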
